A study of Mus musculus with 8 samples.

Results

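The wild-type libraries of a study of the chromatin gene Phf23 were taken here as a baseline of what mouse neural stem cells express in neurosphere culture. Members were chosen by the genotype label alone: the 4 libraries labelled wild type, of 8 in the series. The other 4 libraries, from Phf23-/- cells, were not used. By the labels, the cells were mouse primary embryonic neural stem cells of the brain, grown as neurospheres and lysed in TRIzol, and polyadenylated RNA was sequenced in bulk. The wild-type group carried Phf23+/+ and no treatment is given. The labels name no strain, embryonic age, brain region or medium. They do not say whether the 4 libraries came from separate animals or cultures, so that the spread between them may be technical.

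Neurospheres are floating clusters that grow from single neural progenitors, usually kept in medium with epidermal growth factor (EGF) and basic fibroblast growth factor (FGF2). The cells divide and resemble radial glia, the progenitors of the embryonic brain, which carry the intermediate filament proteins nestin and vimentin and the transcription factor SOX2. When growth factors are withdrawn they can form neurons, astrocytes and oligodendrocytes. A profile of the growing culture therefore shows which lineage factors, regional identity genes, enzymes and receptors the cells hold at that stage.

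Levels are given as TPM (transcripts per 1e6 transcripts), computed here from the deposited normalised read counts and the length of 1 annotated transcript per gene, so that they can be compared between genes. Of 15538 genes, 15535 had a length. Each mean is given ± SD over the 4 libraries (n = 4). With 1 group there was no contrast to test, and an exact paired permutation test over 4 libraries could not give a two-sided p under 0.125, so levels are described and no p-value is given. In bulk RNA, fewer cells of a type and less RNA per cell cannot be told apart.

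The libraries held 15647304 to 18241215 recovered reads. Wild type 1 and 2 resembled each other, as did wild type 3 and 4. Over the 10757 genes averaging 100 or more normalised reads, the median absolute log2 difference was 0.11 within each of these pairs and 0.15 to 0.25 across them. Spearman correlations across the 13265 genes averaging 10 or more ran from 0.983 to 0.996. The libraries also differed along transcript length. In wild type 1 and 2 the level relative to the mean of the 4 libraries went up with each doubling of length (log2 slope 0.11 and 0.05), and in wild type 3 and 4 it went down (-0.06 and -0.07). Genes of high GC content were relatively lower in wild type 1 and 2 and higher in 3 and 4, with log2 slopes per 10 percentage points of GC of -0.20, -0.12, 0.07 and 0.22. No label names a batch. Over all genes, 9152 of 15535 (58.9%) had wild type 1 and 2 both above or both below wild type 3 and 4 in TPM, and of the 263 genes named here 180 did. Where 4 values are printed, their order is wild type 1, 2, 3 and 4. A mean ± SD alone says nothing of this split, and the part of length and GC in it was not tested for single genes.

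**Figure D1:**
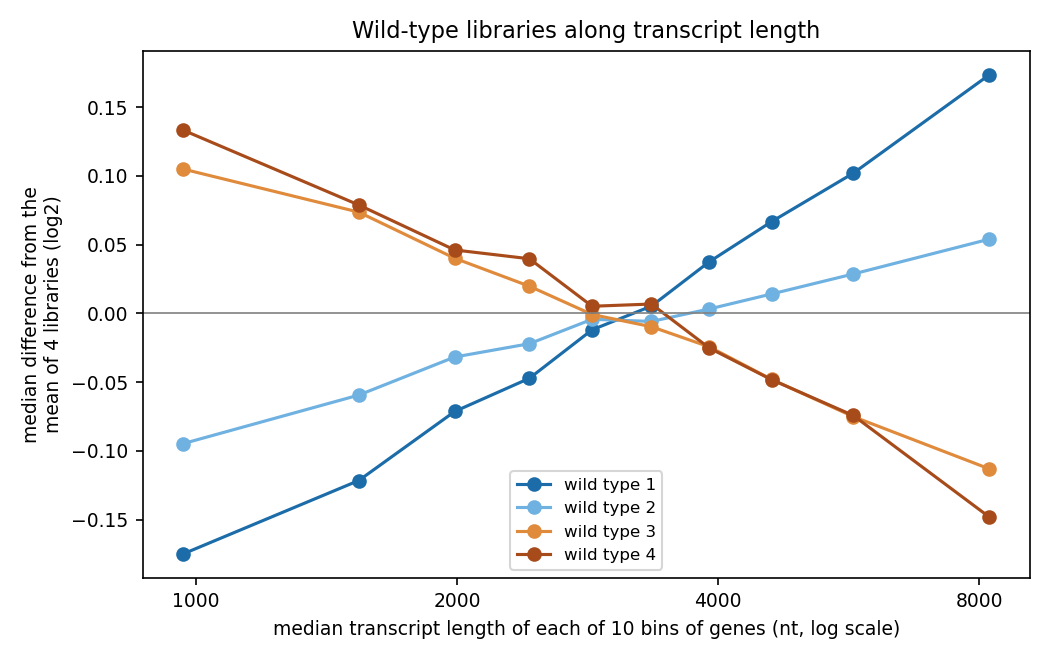
Median log2 difference of each wild-type library from the mean of the 4, over genes averaging 10 or more normalised reads and split into 10 bins of transcript length (x axis, log scale, nt). Wild type 1 went from -0.17 in the bin of shortest transcripts to 0.17 in that of the longest, and wild type 4 from 0.13 to -0.15.

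In all 4 libraries, 12276 genes were at 1 TPM or more, 9010 at 10 or more, 1693 at 100 or more and 94 at 1000 or more. The threshold of 10 TPM thus held for 58% of genes with a length, and that of 100 TPM for 10.9%. The median gene was at 18.4 TPM. The 100 genes of highest mean TPM over the 4 libraries took 26.1 ± 0.491% of all TPM. The 82 cytosolic ribosomal protein genes took 9.76 ± 1.06%, and the 13 measured mitochondrially encoded genes 6.82 ± 1.48%.

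The highest nuclear gene was Ckb, which encodes brain creatine kinase, the enzyme that buffers ATP through phosphocreatine. Ckb was at 11452, 11456, 14880 and 15356 TPM, the higher values being those of wild type 3 and 4. With the length of its longest annotated transcript its mean was 7887 TPM in place of 13286. Next came Eef1a1, the elongation factor that brings aminoacyl-tRNA to the ribosome, at 11218 ± 422 TPM. Tmsb4x, which encodes an actin-sequestering thymosin, was at 5305 ± 672 TPM. Eif4g2, a translation initiation factor gene, was listed just above Tmsb4x at 5309 ± 555 TPM, but its marked transcript of 742 nt is far shorter than the longest one, with which it was at 564 TPM, and 221 genes shared such a gap of over 3 times. Glial and progenitor genes came next. The brain lipid-binding protein gene Fabp7 ranked 5 among nuclear genes at 4692 ± 266 TPM. Vim, which encodes vimentin, ranked 6 at 4321 ± 151 TPM. The insulin-like growth factor binding protein gene Igfbp2 ranked 7 at 2499, 2582, 3744 and 4005 TPM, with no overlap between wild type 1 and 2 and wild type 3 and 4. Serpine2, which encodes a secreted thrombin inhibitor made by glia, ranked 9 at 2940.4 ± 184 TPM. The transcription factor gene Olig1 ranked 11 at 2176, 2179.8, 3083 and 3128 TPM, above Actb (2456 ± 102 TPM) and Gapdh (2426 ± 155 TPM). Pleiotrophin, a secreted growth factor of radial glia encoded by Ptn, was at 2077 ± 126 TPM.

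Within the mitochondrial genome, mt-Co1 was highest at 27149, 25088, 19937 and 16867 TPM, then mt-Cytb at 15394 ± 2714 TPM and mt-Nd1 at 11055 ± 2514 TPM. Genes of the same polycistronic transcripts were listed far lower: mt-Co2 at 461 ± 116 TPM, mt-Atp6 at 197 ± 47.9 TPM and mt-Nd3 at 25.2 ± 6.49 TPM. How the reads of genes with near-identical nuclear copies were counted is not given, so these low values are uncertain. The gene mt-Nd6 (4261 ± 955 TPM) is encoded on the strand opposite to mt-Nd5, and the strand setting of the counting is not given. The summed share was 8.46% of TPM in wild type 1 and 7.56% in wild type 2, and 6.10% and 5.15% in wild type 3 and 4.

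Promoters of 3 genes at the top of this profile (Ckb, Vim and Fabp7), of the progenitor markers Nes and Sox2, and of the cholesterol and cell cycle groups described below are shown as the 150 bases before the transcription start, so that the elements in them can be seen. They come from RefSeq (GRCm38.p6, the assembly that mm10 denotes), are written 5′ to 3′ on the strand of the gene, and carry in capitals each TATAAA or TATATA on that strand 45 to 16 bases before the start, each CCAAT box on either strand (CCAAT or ATTGG), and each GC box on either strand (GGGCGG or CCGCCC). The motifs shown do not overlap one another. Olig1 is not shown.
Ckb: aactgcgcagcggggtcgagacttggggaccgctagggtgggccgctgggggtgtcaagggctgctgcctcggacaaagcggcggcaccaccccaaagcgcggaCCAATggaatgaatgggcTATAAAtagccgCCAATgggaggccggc
Vim: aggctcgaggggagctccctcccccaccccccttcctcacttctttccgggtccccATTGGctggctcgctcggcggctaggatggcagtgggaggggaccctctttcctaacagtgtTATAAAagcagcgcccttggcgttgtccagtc
Fabp7: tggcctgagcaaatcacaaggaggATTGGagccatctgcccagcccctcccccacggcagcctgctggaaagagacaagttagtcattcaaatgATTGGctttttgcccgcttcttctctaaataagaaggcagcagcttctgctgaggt
Nes: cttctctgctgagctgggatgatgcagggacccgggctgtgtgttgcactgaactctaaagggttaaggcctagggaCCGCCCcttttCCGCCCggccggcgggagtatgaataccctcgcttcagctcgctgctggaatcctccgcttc
Sox2: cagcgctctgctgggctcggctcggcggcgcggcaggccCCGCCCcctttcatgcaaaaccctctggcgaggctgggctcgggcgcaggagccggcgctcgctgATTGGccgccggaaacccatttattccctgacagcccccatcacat
Hmgcs1: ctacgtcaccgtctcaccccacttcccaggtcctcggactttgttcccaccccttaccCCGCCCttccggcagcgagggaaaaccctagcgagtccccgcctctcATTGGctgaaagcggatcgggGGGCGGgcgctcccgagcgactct
Pcna: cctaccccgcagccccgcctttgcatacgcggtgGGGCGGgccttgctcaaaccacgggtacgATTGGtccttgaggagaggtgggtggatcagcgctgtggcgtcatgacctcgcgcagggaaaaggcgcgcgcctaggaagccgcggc
Ube2c: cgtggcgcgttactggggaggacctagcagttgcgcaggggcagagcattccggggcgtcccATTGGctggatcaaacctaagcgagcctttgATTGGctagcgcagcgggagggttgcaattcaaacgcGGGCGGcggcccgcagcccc

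The window of Ckb is chr12:111672339-111672488 and that of Pcna chr2:132253181-132253330, both on the minus strand. The others are on the plus strand: Vim at chr2:13574161-13574310, Fabp7 at chr10:57784773-57784922, Nes at chr3:87970943-87971092, Sox2 at chr3:34649845-34649994, Hmgcs1 at chr13:119690201-119690350 and Ube2c at chr2:164769779-164769928. These RefSeq starts differ from the GENCODE gene positions printed below. By the latter the Vim window lies inside the gene, and the Sox2 window ends upstream without reaching the gene. Ckb and Vim held a TATAAA 28 and 32 bases before the RefSeq start. In the table of 32851 promoters, searched over the 250 bases before the start, 2.96% held such a TATA sequence, 33.8% a CCAAT box and 32.7% a GC box. For nuclear genes with a row here the shares were 1.85%, 35.0% and 54.8% of 15430 promoters. For those at 10 TPM or more in all libraries they were 1.28%, 35.7% and 60.7% of 9362 promoters. Promoters were matched for 7258 of these 8998 genes and for 77 of the 100 highest. In the cholesterol synthesis list 16 of 22 genes were matched, and in the cell cycle list 29 of 36. The 100 highest nuclear genes had a TATA sequence in 7 of 95 promoters (7.37%). In the cholesterol synthesis list, 15 of 19 promoters held a CCAAT box and 0 a TATA sequence. In the cell cycle list 25 of 31 promoters held a CCAAT box and 0 a TATA sequence, as Hmgcs1, Pcna and Ube2c show. A match describes these letters only, and several promoters can belong to 1 gene.

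The neural stem cell label was checked on 5 markers, with gene positions on mm10 from GENCODE M21. Nestin, encoded by Nes (chr3:87971078-87980451), was at 427, 463, 372 and 467 TPM, and the neural progenitor factor gene Sox2 (chr3:34650405-34652461) at 269, 302, 389.8 and 395 TPM. Tnc (chr4:63959785-64047015), which encodes the progenitor matrix protein tenascin C, was at 537, 542, 428 and 488 TPM. Ptprz1 (chr6:22875502-23052916), which encodes a receptor phosphatase that is also secreted as phosphacan, was at 879, 797, 645 and 578 TPM. With Vim (chr2:13573927-13582826) at 4255, 4147, 4487 and 4397 TPM, all 5 markers were at 269 TPM or more in every library. Sox2 was higher in wild type 3 and 4 and Ptprz1 in wild type 1 and 2, without overlap, while the CV of normalised reads was 9.22% for Nes and 6.39% for Vim.

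Of the 30 genes of the radial glia and neural stem cell list, 25 were at 10 TPM or more in all 4 libraries, against 58% of all genes, and 16 were at 100 or more, against 10.9%. The median member was at 145 TPM. Dbi, which encodes the acyl-CoA binding protein, was at 2110 ± 93 TPM. Slc1a3, the glial glutamate transporter gene, was at 662, 629, 516 and 524 TPM and the endothelin receptor gene Ednrb at 549 ± 52.3 TPM. Msi2, which encodes an RNA-binding Musashi protein, was at 370.4 ± 40.5 TPM (122 TPM with its longest transcript), and Phgdh, the entry enzyme of serine synthesis, at 322, 336, 389 and 391 TPM. Sox9, a glial fate factor gene, was at 142, 142, 120.4 and 117 TPM. Members under 10 TPM were Prom1 (9.19 ± 0.882 TPM), Lix1 (4.18 ± 0.589 TPM), Gli3 (3.6 ± 0.352 TPM), Id4 (3.29 ± 0.169 TPM) and Fut4 (1.1 ± 0.188 TPM). Prom1 encodes the surface protein prominin-1 and Fut4 a fucosyltransferase, and both are often used to sort neural stem cells.

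Genes of the 3 lineages that such cells can form were unevenly represented. In the oligodendrocyte lineage list 9 of 20 members reached 10 TPM in all libraries, against 58% of all genes, and its median of 11.5 TPM was below the 18.4 TPM of the median gene. Its top was formed by 2 basic helix-loop-helix factor genes that specify the lineage. Olig1 (chr16:91269772-91271933) is given above, and Olig2 (chr16:91225457-91228677) was at 811, 815, 1022 and 1039 TPM, higher in wild type 3 and 4. Sox8 was at 146 ± 5.18 TPM, Lhfpl3, a gene of oligodendrocyte precursors, at 74.5 ± 14.9 TPM and Nkx2-2 at 55.1 ± 2.0 TPM. Other genes of precursors were Cspg4, which encodes NG2, at 40.2 ± 0.445 TPM, the platelet-derived growth factor receptor gene Pdgfra at 12.8 ± 2.13 TPM and the lineage factor gene Sox10 at 5.9 ± 0.353 TPM. Genes of myelin were spread: Cnp, which encodes a phosphodiesterase of myelin-forming cells, was at 108 ± 12.6 TPM, the claudin gene Cldn11 at 23.1 ± 5.08 TPM and Mbp at 10.1 ± 4.02 TPM (1.53 TPM with its longest transcript), and Mag, the myelin-associated glycoprotein gene, had 1, 0, 3 and 0 reads.

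In the astrocyte list 18 of 20 measured members reached 10 TPM (median 70.9 TPM), against 58% of all genes. However, many of its members are shared with radial glia. Sparcl1, which encodes a secreted synaptogenic protein, was at 530.3 ± 11.1 TPM, and the acyl-CoA synthetase gene Acsbg1 at 453 ± 30.7 TPM. Apoe, which encodes the lipid carrier of glia, was at 239.7, 305, 432 and 516 TPM, highest in wild type 3 and 4. Aldh1l1, an astrocyte folate enzyme gene, was at 91.9 ± 8.35 TPM. Genes of mature astrocytes were lower, with Gfap (glial fibrillary acidic protein) at 13.6, 14.3, 15.9 and 16 TPM, the water channel gene Aqp4 at 10.6 ± 1.85 TPM and S100b at 11.7 ± 0.812 TPM.

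Of the young neuron list, 6 of 26 measured members reached 10 TPM in all libraries (median 3.96 TPM), against 58% of all genes. They were led by Gap43, a growth cone gene also held by glial progenitors, at 615, 659.6, 635 and 648 TPM. Map2, which encodes a dendritic microtubule-associated protein, was at 459.9, 438, 344 and 326 TPM and Mapt, the tau gene, at 160.3 ± 12.1 TPM (47.6 TPM with its longest transcript). Stmn3, which encodes a neuronal stathmin, was at 128 ± 17.3 TPM. Tubb3, the neuronal beta tubulin gene, was at 9.29, 10.5, 15.4 and 16.8 TPM and the migration gene Dcx at 23.4, 21.1, 13 and 9.8 TPM (mean 2.82 TPM with its longest transcript). The RNA-binding protein genes Elavl4 and Elavl3 of neurons were at 39.4 ± 6.49 and 20.8 ± 2.72 TPM, and the synaptic vesicle genes Syt1 and Syp at 12 ± 2.36 and 9.13 ± 0.936 TPM. Under 1 TPM were the neuronal nuclear gene Rbfox3 (0.699 ± 0.372 TPM), the glutamate transporter gene Slc17a7 (0.30 ± 0.153 TPM) and Tbr1 (0.215 ± 0.0895 TPM). Stmn2, another stathmin gene of neurons, had 3, 1, 0 and 2 reads.

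The intermediate progenitor and proneural list had 9 of 15 measured members at 10 TPM, near the 58% of all genes, and 0 at 100. Its members at higher levels included Hes6 (70.2, 76.6, 104 and 119.7 TPM) and Gadd45g (91.8 ± 16.7 TPM). The factors of cortical intermediate progenitors and cortical neurogenesis were low: Eomes was at 0.128 ± 0.035 TPM and Neurog2 had 0 reads in each library. Neurog1 had no row and was not analysed here.

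**Figure D2:**
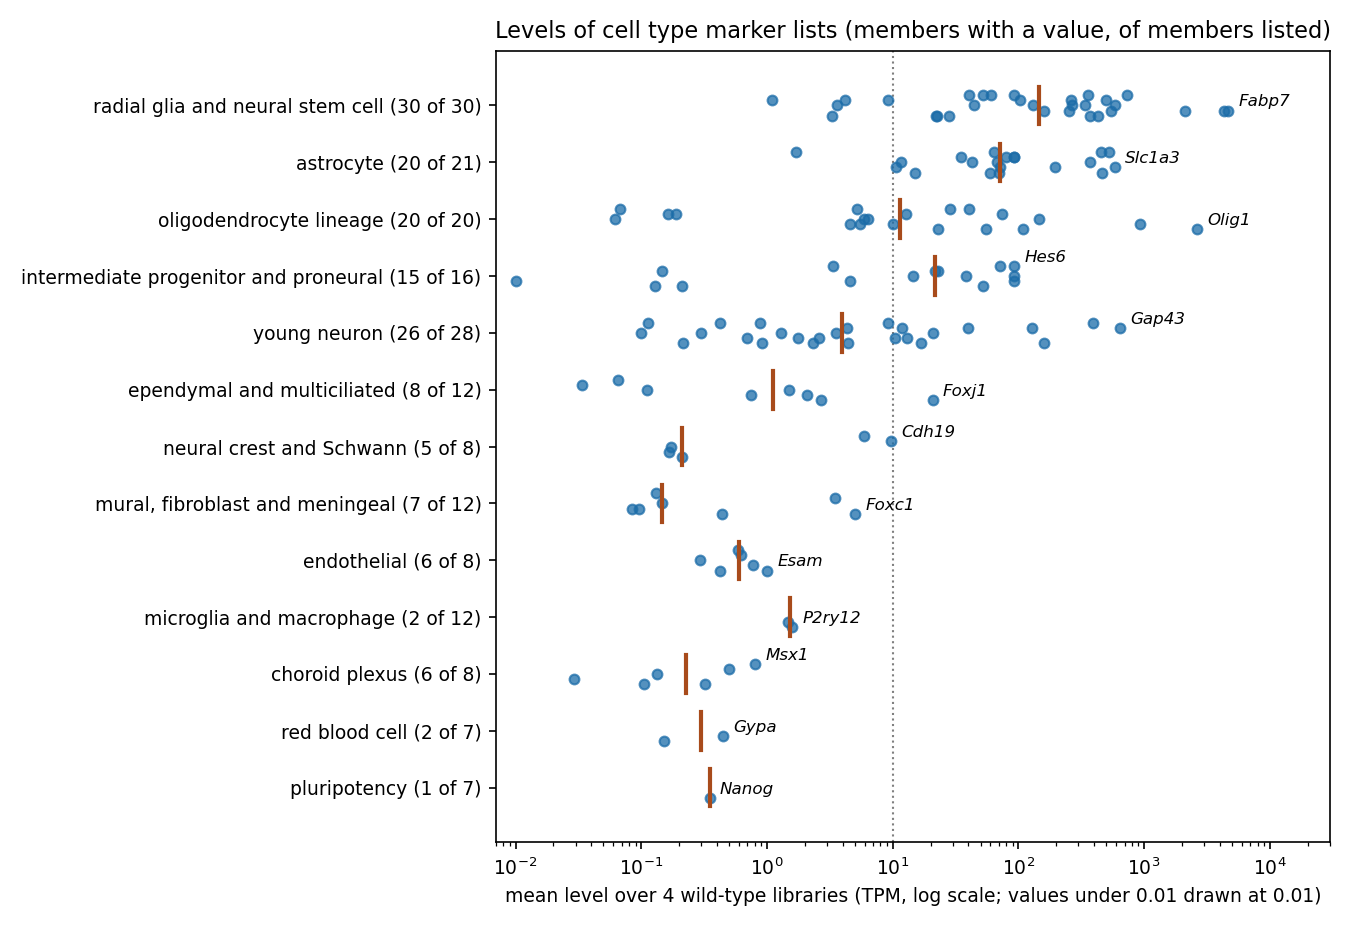
Mean TPM over the 4 wild-type libraries (log scale) of each measured member of 13 cell type lists, with the list median as a bar, the highest member named and a dotted line at 10 TPM. The radial glia and astrocyte lists have the highest medians, and the lists from neural crest down hold 0 members at 10 TPM or more in every library.

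Markers of other cells that a primary brain culture could carry were low. Of the ependymal and multiciliated list 1 of 8 measured members reached 10 TPM, against 58% of all genes. It was Foxj1, the master gene of motile cilia, at 16.4, 20.9, 18.6 and 27.3 TPM. The list's other measured members ran from Dnah5 at 0.034 ± 0.0271 TPM to Rsph1 at 2.67 ± 0.608 TPM. In the choroid plexus list 0 of 6 measured members reached 10 TPM (highest Msx1, 0.802 ± 0.305 TPM), and in the endothelial list 0 of 6 (highest Esam, 1.0 ± 0.526 TPM). In the mural, fibroblast and meningeal list 0 of 7 reached it (highest Foxc1, 5.05 ± 0.791 TPM), the collagen gene Col1a1 standing at 0.441 ± 0.192 TPM. Of 12 microglia and macrophage genes 10 had no row, among them Csf1r and Aif1, and P2ry12 was at 1.59 ± 0.82 TPM. Of 7 red blood cell genes 5 had no row, all 5 of them globin genes. Of 7 pluripotency genes, 6 had no row and Nanog was at 0.349 ± 0.259 TPM. A missing row is not a measured 0, and genes without a row are not analysed here.

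Y-linked genes were present in all 4 libraries. Ddx3y was at 34.9, 35.8, 34.7 and 30.4 TPM, Eif2s3y at 124, 126, 99.2 and 95 TPM, Kdm5d at 14.8 ± 2.09 TPM and Uty at 14.2 ± 3.0 TPM. Xist, the RNA that coats the inactive X chromosome, had 0, 5, 4 and 8 reads in wild type 1 to 4. All 4 libraries therefore had the same pattern of Y-linked genes with almost no Xist.

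The regional identity of the culture was read from patterning factors. Of the forebrain and dorsal telencephalon list 10 of 15 measured members reached 10 TPM in all libraries, close to the share of all genes. Lhx2 (chr2:38339281-38369733), a selector of cortex over its borders, was at 86.7, 86.8, 118 and 124 TPM. It was higher in wild type 3 and 4 without overlap. Nr2f1, which encodes the caudal cortical factor COUP-TFI, was at 101, 105, 131 and 126 TPM and was also higher in wild type 3 and 4, Otx1 at 35.8 ± 4.07 TPM and Emx2 at 27.8 ± 0.983 TPM. Pax6, which drives cortical neurogenesis, was at 22.5 ± 2.0 TPM, and Nr2e1 at 23.5 ± 2.66 TPM. At the low end of the list were Emx1 at 0.34 ± 0.236 TPM and Dmrt3 at 1.34 ± 0.327 TPM.

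Among ventral telencephalic and interneuron genes 3 of 13 measured members reached 10 TPM, against 58% of all genes. Meis2 was at 139, 139, 109 and 116 TPM, and Gsx1, a factor of lateral and medial ganglionic eminence progenitors, at 23.5, 24.4, 38.2 and 28.1 TPM. Meis1 was at 21.7 ± 3.98 TPM. Dlx2, the next factor of that lineage, was at 1.26 ± 0.37 TPM. Gsx2, the paralog of Gsx1, had 5, 0, 8 and 0 reads. Nkx2-1, Lhx6 and Dlx5 had no row.

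Caudal genes were mostly under 10 TPM, a level that 58% of all genes reached. In the diencephalon list Tcf7l2 (23.5 ± 2.32 TPM), also a Wnt effector, was the 1 of 5 measured members at 10 TPM. In the midbrain and isthmus list 0 of 6 reached it, with En1 at 0.093 ± 0.0234 TPM and Fgf8 at 0.532 ± 0.405 TPM. Of 43 hindbrain and spinal cord genes 39 had no row, including each of the 38 Hox genes listed. The 1 member at 10 TPM was Egr2 (47.6 ± 7.4 TPM), a rhombomere gene that is also an immediate early gene.

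**Figure D3:**
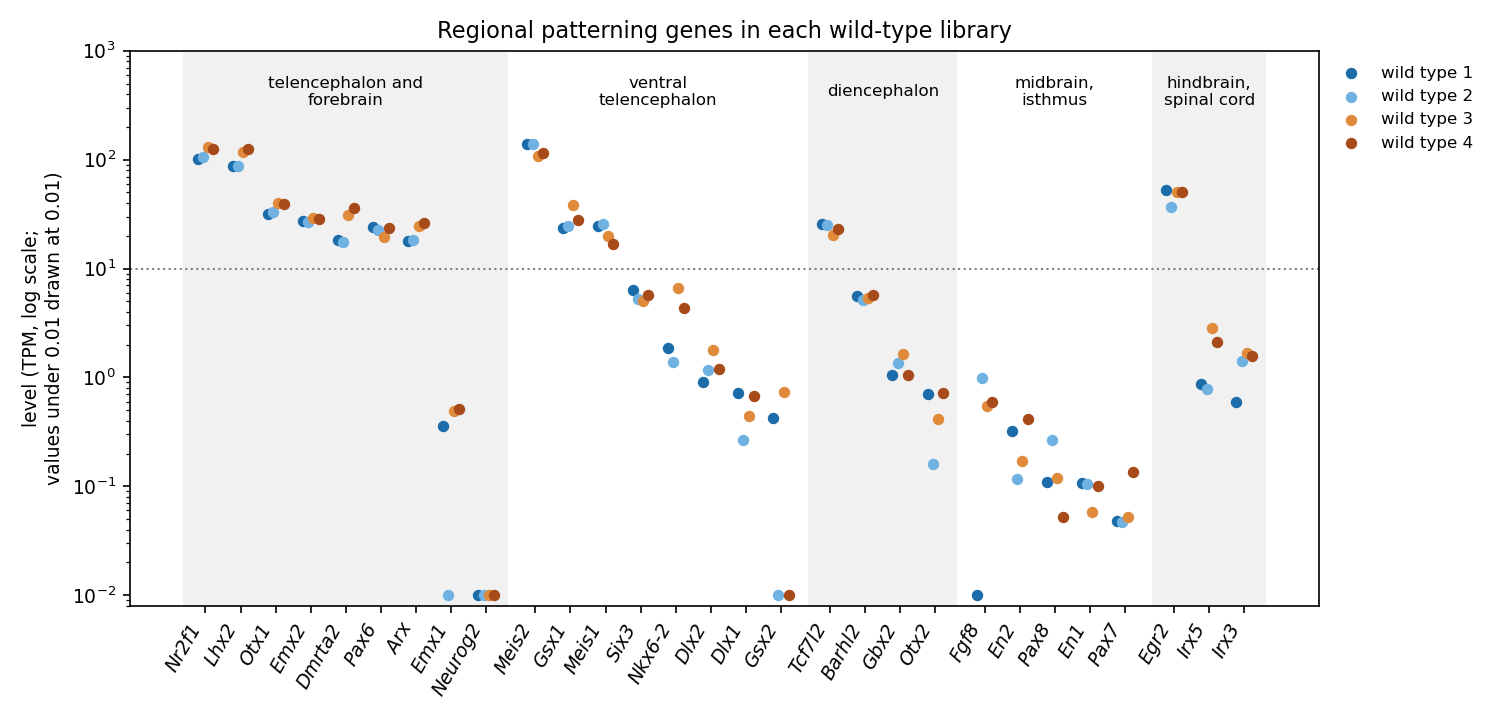
TPM (log scale, values under 0.01 drawn at 0.01) of regional patterning genes in each wild-type library, with a dotted line at 10 TPM. Lhx2, Nr2f1 and Meis2 lie at 86.7 TPM or more in each library, while the midbrain genes stay under 1 TPM.

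The cells held the genes of division. Each of the 36 cell cycle genes was at 10 TPM or more in all libraries, against 58% of all genes, and 24 were at 100 or more, against 10.9%. The G1 cyclin gene Ccnd1 (chr7:144929931-144939925) was at 1305, 1260, 1183 and 1241 TPM, with a CV of 1.84% in normalised reads, and Ccnd2 at 835 ± 108 TPM. Pcna, the sliding clamp of DNA replication, was at 647 ± 54.9 TPM, and Ube2c, which encodes a ubiquitin enzyme of mitotic exit, at 482 ± 35.5 TPM. The kinase gene Cdk4 was at 452 ± 45.2 TPM and Top2a, topoisomerase II alpha, at 439.6, 389, 337 and 310.4 TPM. The proliferation marker gene Mki67 was at 200.2, 177, 129 and 120.2 TPM. The list's median excess CV, the spread left after counting error is taken out, was 7.55%.

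Inhibitors of the cycle were held as well. Cdkn1a, which encodes p21, was at 661, 685, 603 and 652 TPM, with similar values in all 4 libraries. Cdkn2c was at 116 ± 15.5 TPM and Cdkn1b, which encodes p27, at 79 ± 2.9 TPM. Cdkn2a, the locus of p16 and p19ARF, was at 56.3, 64.1, 94.4 and 113 TPM, with wild type 3 and 4 above 1 and 2. Each of the 18 p53 target genes was at 10 TPM or more, against 58% of all genes. Of the 18, 8 were at 100 or more (median of the list 100.2 TPM), against 10.9% of all genes. Bax, which permeabilises mitochondria in apoptosis, was at 529.7 ± 69.3 TPM and Ccng1 at 457 ± 72.7 TPM. Trp53 itself was at 153 ± 4.7 TPM and Mdm2, its ubiquitin ligase gene, at 102 ± 14.3 TPM. Puma and Noxa, encoded by Bbc3 and Pmaip1, were at 44.7 ± 15.5 and 37.2 ± 2.8 TPM.

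Receptors for the growth factors of neurosphere culture were measured with their feedback genes. Of the EGF and FGF receptor and feedback list 22 of 28 members reached 10 TPM, against 58% of all genes, and 10 reached 100, against 10.9%. Among receptors, Egfr was at 110.4, 101, 86.7 and 79.2 TPM, with wild type 1 and 2 above 3 and 4, while Fgfr1 was at 123 ± 7.91 TPM, Fgfr3 at 93 ± 12.2 TPM and Fgfr2 at 22.5 ± 2.71 TPM. Of 14 target and feedback genes, 9 were above Fgfr1 and 5 below it, down to 16.5 TPM. The higher ones included the ETS factor genes Etv5 at 332, 303, 286 and 319 TPM and Etv4 at 146 ± 18.2 TPM, the ERK phosphatase gene Dusp6 at 331, 290.3, 237 and 217 TPM and the Sprouty genes Spry2 and Spry1 at 225 ± 28.4 and 166 ± 17.7 TPM. Lrig1, which limits EGF receptor signalling, was at 255 ± 11.2 TPM. Among ligands, Fgf1 was at 82 ± 12.9 TPM, Hbegf at 69.8 ± 3.26 TPM and Areg at 22.2 ± 1.06 TPM, and Fgf2 was at 2.03 ± 0.428 TPM.

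Notch signalling keeps progenitors from differentiating, through receptor cleavage and the Hes repressors. Of its list 16 of 24 members reached 10 TPM in all libraries, near the 58% of all genes, and 1 reached 100, against 10.9%. Lfng, a glycosyltransferase gene that tunes the receptors, was at 166, 159, 251 and 249 TPM. Among receptors Notch1 was at 70.9 ± 10.3 TPM, Notch3 at 30.1 ± 2.5 TPM and Notch2 at 11.8 ± 1.19 TPM. Ligands were Jag1 at 70.4, 66.6, 50.5 and 49.7 TPM, Dll1 at 38.4 ± 3.82 TPM and Dll3 at 21.6 ± 5.59 TPM. Of the targets, Hes1 was at 91.2, 66.4, 121 and 131 TPM and Hes5 at 63, 44.3, 46.9 and 53.3 TPM, and Hey1 at 49.9 ± 4.15 TPM. Hes1 and Lfng were lowest in wild type 2, and Hes5 was highest in wild type 1.

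In the Hedgehog list 5 of 14 members reached 10 TPM, against 58% of all genes, and genes of reception were higher than those of the Gli effectors. The co-receptor gene Gas1 was at 153, 137, 220.1 and 208 TPM (mean 80.1 TPM with its longest transcript), the transducer gene Smo at 60.3 ± 2.71 TPM, the receptor gene Ptch1 at 55.1 ± 4.01 TPM and Sufu at 27.3 ± 2.06 TPM. The ligand gene Shh was at 1.68 ± 0.18 TPM. Gli1, the transcriptional readout of the pathway, had 4, 0, 0 and 0 reads, and Gli2 and Gli3 were at 1.8 ± 0.322 and 3.6 ± 0.352 TPM.

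In the Wnt list 15 of 28 measured members reached 10 TPM, near the share of all genes. Ctnnb1, which encodes beta-catenin, was at 524 ± 21.8 TPM, and the receptor gene Fzd1 at 97.1 ± 8.9 TPM. Ligands were Wnt7b at 60.4 ± 9.06 TPM, Wnt7a at 45.3 ± 2.74 TPM and Wnt5a at 30.5 ± 1.27 TPM, and the target gene Axin2 was at 26.5 ± 1.54 TPM. Lef1, a nuclear effector, was at 0.243 ± 0.0819 TPM. In the BMP and TGF-beta list 16 of 29 reached 10 TPM, also near that share. The ligand gene Bmp7 was at 112 ± 4.37 TPM and the receptor gene Bmpr1a at 88.2 ± 13.9 TPM. Bmp4, another ligand gene, had 0, 0, 3 and 0 reads. The target gene Id3 was at 163, 167, 234 and 213 TPM, higher in wild type 3 and 4, and Id2 at 98.8 ± 17.9 TPM.

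Insulin pathway genes gave 15 of 18 members at 10 TPM, against 58% of all genes. The binding protein genes were highest, with Igfbp3 at 1029.5 ± 28.5 TPM and Igfbp4 at 340.0 ± 33.2 TPM beside Igfbp2 above. The receptor genes Insr and Igf1r were at 44 ± 7.4 and 24.9 ± 2.44 TPM, and the ligand genes Igf1 and Igf2 at 0.397 ± 0.263 and 0.458 ± 0.205 TPM. Hippo genes included Yap1 at 49.6 ± 0.478 TPM, Wwtr1 (TAZ) at 56.5 ± 2.3 TPM and Tead1 at 60.2 ± 10.6 TPM, with 13 of 16 measured members at 10 TPM. In the LIF, CNTF and JAK-STAT list 7 of 13 members reached 10 TPM, near the share of all genes. Stat3, the effector of astrocyte formation, was at 147 ± 6.17 TPM, the receptor genes Cntfr, Il6st and Lifr at 59.8 ± 8.28, 28.4 ± 3.66 and 19.1 ± 2.68 TPM, and the feedback gene Socs3 at 8.38 ± 2.87 TPM.

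Metabolic genes were broadly high. In glycolysis 20 of 23 members reached 10 TPM, against 58% of all genes, and 11 reached 100, against 10.9%. Gapdh was at 2229, 2373, 2556 and 2544 TPM (mean 1199 TPM with its longest transcript), the enolase gene Eno1 at 1944 ± 85.7 TPM, the pyruvate kinase gene Pkm at 1615 ± 131 TPM and the lactate dehydrogenase genes Ldha and Ldhb at 794 ± 49.6 and 364 ± 14.8 TPM. At the entry of the pathway Hk1 was at 97.6 ± 7.4 TPM and Hk2 at 7.42 ± 0.816 TPM, and the glucose transporter gene Slc2a1 at 24.2 ± 2.1 TPM. Each of the 22 genes of the tricarboxylic acid cycle was at 10 TPM or more and 19 were at 100 or more (median 238 TPM), led by malate dehydrogenase, Mdh2, at 704 ± 36.5 TPM and citrate synthase, Cs, at 629 ± 33.8 TPM.

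Lipid synthesis genes were measured at moderate to high levels. Each of the 22 cholesterol synthesis genes reached 10 TPM, against 58% of all genes, and 10 of them reached 100, against 10.9%. Hmgcs1 (chr13:119690379-119708260), which encodes the cytosolic HMG-CoA synthase, was at 384, 368, 310.0 and 315 TPM, with wild type 1 and 2 above 3 and 4. The farnesyl diphosphate synthase gene Fdps was at 275 ± 21 TPM, the regulator gene Srebf2 at 216 ± 8.42 TPM and Sqle at 199 ± 16.1 TPM. Each of the 19 fatty acid genes reached 10 TPM. Scd2, the desaturase gene that makes monounsaturated fatty acids in brain, was at 1684, 1566, 1522 and 1577 TPM, with an excess CV of 2.91%. Fads2 was at 299 ± 8.07 TPM, the fatty acid synthase gene Fasn at 169 ± 4.68 TPM and the oxidation gene Acadl at 263 ± 6.54 TPM.

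Serine and one-carbon genes reached 10 TPM in 16 of 16 members, against 58% of all genes. Psat1 was at 417 ± 14.8 TPM, Shmt2 at 138 ± 10.8 TPM and Psph at 52.1 ± 4.42 TPM beside Phgdh. For glutamine and glutamate, 12 of 14 members reached 10 TPM: Glud1 was at 317 ± 17.7 TPM and the glutamine synthetase gene Glul at 251 ± 8.98 TPM. All 22 oxidative stress genes reached 10 TPM. Thioredoxin, Txn1, was at 1808, 2001, 2587 and 2604 TPM, Sod1 at 569 ± 58.8 TPM (105 TPM with its longest transcript) and Gstm1 at 528 ± 33.2 TPM.

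Stress readouts differed from one another. In the integrated stress response list 11 of 16 members reached 10 TPM, against 58% of all genes. The chaperone gene Hspa5 was at 447, 391, 282 and 286 TPM and Atf4 at 185 ± 18.8 TPM. The list's stress-induced target genes were spread. Slc3a2 and Slc7a5 reached 100 TPM in all libraries, as Hspa5 and Atf4 did, and the list's median was 48.3 TPM. Below that median were Ddit3 (CHOP) at 25.1 ± 1.97 TPM, Chac1 at 1.4 ± 0.283 TPM and Trib3 at 0.733 ± 0.366 TPM. Of the hypoxia list 12 of 17 members reached 10 TPM, against the same 58%, with Vegfa at 189 ± 26.6 TPM. With its longest annotated transcript as length, Vegfa was at 41 TPM. The carbonic anhydrase gene Car9, a strict hypoxia target, had 0, 7, 0 and 3 reads. Interferon genes were low, with 8 of 22 measured members at 10 TPM, against 58% of all genes. B2m, the light chain of class I molecules, was at 217 ± 18.8 TPM, whereas Isg15 was at 0.792 ± 0.0888 TPM and Ifit1 at 0.452 ± 0.237 TPM.

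Immediate early genes are induced within minutes by growth factors. Of their list 17 of 23 members were at 10 TPM or more, against 58% of all genes. Egr1 was at 556, 402, 285 and 269.7 TPM and Fos at 300.3, 172, 217 and 208 TPM. Both were highest in wild type 1. Myc was at 200.2 ± 11.6 TPM and Jun at 153 ± 24.8 TPM. Summed over the list, the level was 2102 TPM in wild type 1 and 1611, 1651 and 1567 TPM in wild type 2, 3 and 4.

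Matrix genes of the glial kind led the extracellular matrix list. Of its 32 measured members 17 reached 10 TPM, near the share of all genes, and 9 reached 100, against 10.9%. Bcan (brevican) was at 548, 546, 675 and 718 TPM, Ncan (neurocan) at 475 ± 30.2 TPM, Vcan (versican) at 209.9 ± 43.4 TPM (44.8 TPM with its longest transcript) and Cspg5 at 193 ± 15.1 TPM. Bcan was higher in wild type 3 and 4. Of the basement membrane genes, Agrn was at 154 ± 6.55 TPM and Lamc1 at 64.4 ± 5.0 TPM. Fn1 (fibronectin) was at 11.1 ± 1.67 TPM and Acan (aggrecan), of the same family as Bcan, at 0.0961 ± 0.0524 TPM.

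Imprinted genes, expressed from 1 parental allele, reached 10 TPM in 7 of 18 measured members, against 58% of all genes. The neuronatin gene Nnat was at 362, 365, 473 and 449.8 TPM, Mest at 386 ± 30.6 TPM, Peg10 at 189, 162, 131 and 129 TPM and Peg3 at 77.9 ± 14.3 TPM. H19 was at 1.93 ± 0.305 TPM and Meg3 at 1.03 ± 0.138 TPM. Of the long non-coding list 6 of 14 measured members reached 10 TPM, against the same 58%. Malat1 was at 302, 238, 143 and 139 TPM, with wild type 1 and 2 above 3 and 4, Gas5 at 94.9 ± 14.9 TPM and Neat1 at 0.262 ± 0.11 TPM. Phf23 itself was at 51.6, 54.7, 53.1 and 63.1 TPM, and Tcf4, the E protein gene named in the study's title, at 246, 232, 184 and 174 TPM.

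Dominant paralogs were read in 98 gene families, of which 94 had at least 2 measured members. In 89 of the 94 the same member led in all 4 libraries. In 73 it held more than 50% of the family's summed TPM in each library, and in 17 more than 90%. The median share of the leader was 68.6%. The same member led in 88 families whether length was that of the marked transcript, the longest transcript or the union of exons.

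In some families 1 member held nearly all of the TPM. Ckb took 99.9 ± 0.0157% of creatine kinase TPM, Eef1a1 99.8 ± 0.0322% of its pair, Ptn 99.8 ± 0.0992% against Mdk (4.03 ± 2.08 TPM), and Eno1 99.2 ± 0.0675% of the enolases, Eno2 being the neuronal form (11.6 ± 0.869 TPM). Otx1 took 98.6 ± 0.768% with Otx2 at 0.499 ± 0.268 TPM, and Emx2 98.8 ± 0.816% with Emx1 as given above. Egfr took 93.1 ± 0.616% of the ErbB receptors, Erbb2 standing at 3.82 ± 0.282 TPM and Erbb3 at 0.167 ± 0.116 TPM. Hk1 held 92.3 ± 0.698% of the hexokinases and Slc1a3 89.5 ± 0.421% of the glutamate transporters, with Slc1a2 at 60 ± 10.3 TPM. Scd2 held 89.9 ± 1.11%, Scd1 being at 178 ± 26.8 TPM. Cdkn1a held 88.5 ± 0.631% of the Cip/Kip inhibitors.

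In the SoxB1, SoxE, Pou3f, Olig, COUP-TF and Nfi families of transcription factors the leader held less than Otx1 or Emx2 did of theirs. Sox2 held 64.7 ± 3.16% of SoxB1 TPM, with Sox3 at 119, 116, 191 and 216 TPM and Sox1 at 23.1, 22, 31.5 and 35.6 TPM. Sox2 led in every library although both genes were higher in wild type 3 and 4. In the SoxE family Sox8 and Sox9 exchanged the lead, Sox8 leading in 3 of 4 libraries. Pou3f3 held 64.5 ± 1.97% of the Pou3f factors, at 159 ± 20.2 TPM, Olig1 73.9 ± 1.31% of the Olig factors and Nr2f1 75.8 ± 3.55% of the COUP-TF receptors. The Nfi family was spread over its members, Nfix leading with 37.2 ± 1.89%.

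Among receptor and cycle families, Notch1 held 62.4 ± 2.53% of the Notch receptors and Lfng 79.9 ± 3.07% of the Fringe enzymes. Fgfr1 held 51.5 ± 2.71% of the FGF receptors and Bmpr1a 77 ± 2.78% of type I BMP receptors. Ccnd1 held 57.8 ± 1.89% of the D cyclins, Ccnd3 standing at 80.2 ± 6.89 TPM, and Ccna2 97.8 ± 0.415% of the A cyclins, Ccna1 being known from germ cells. Fabp7 held 81 ± 1.04% of the fatty acid binding proteins, ahead of Fabp5 (1093 ± 76.1 TPM, or 381 TPM with its longest transcript), and Igfbp2 68.7 ± 5.22% of the Igfbp genes, with wild type 3 and 4 above 1 and 2.

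Among chromatin families, Ezh2, the Polycomb methyltransferase gene, held 95.8 ± 0.557% against Ezh1 (6.07 ± 0.407 TPM). Actl6a, the progenitor form of the BAF53 subunit of the BAF remodeller, held 99.1 ± 0.595%, its neuronal paralog Actl6b standing at 0.741 ± 0.504 TPM. Smarca4 held 82.9 ± 2.15% of the BAF ATPases and Chd4 96 ± 0.408% of the CHD3 to CHD5 group. Dnmt1, the maintenance methyltransferase gene, held 80.8 ± 1.95%, and Tet3 76.9 ± 3.59% of the Tet dioxygenases. Among RNA-binding proteins Msi2 held 85.7 ± 1.93% of the Musashi pair and Ptbp1 45 ± 2.81% of the PTB family. The mean TPM of Ptbp1 was only 1.25 times that of the runner-up Ptbp2, the member that takes its place in neurons.

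**Figure D4:**
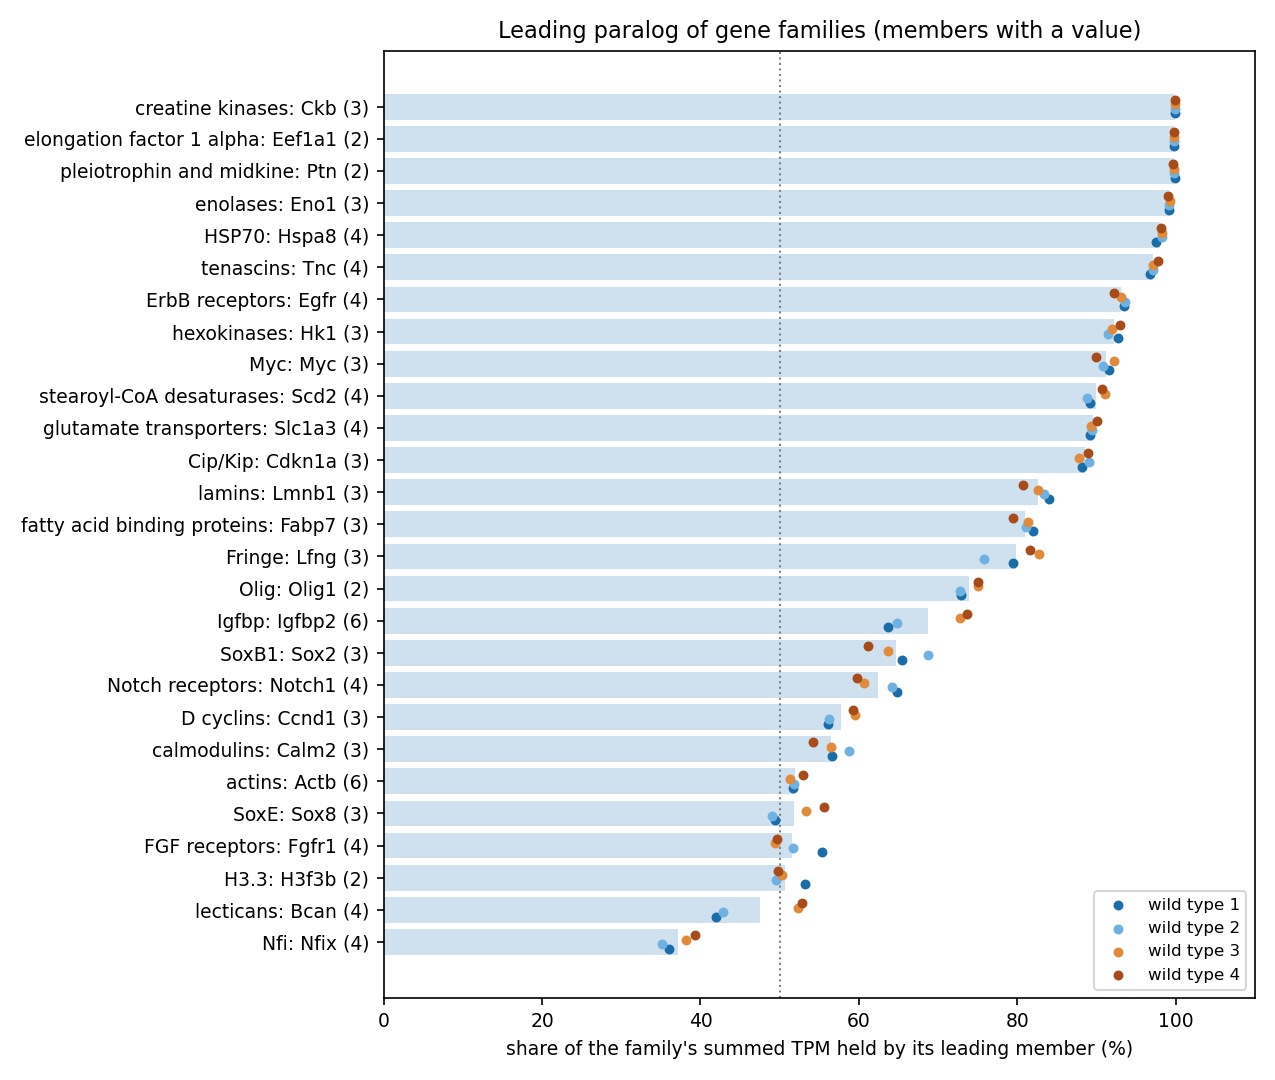
Share of each family's summed TPM held by its leading member in each of the 4 wild-type libraries (points) and on average (bars), for 27 of the 98 families, with the number of measured members in brackets and a dotted line at 50%. Ckb, Eef1a1 and Ptn hold over 99% in each library, while Nfix leads its family with less than 40%.

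The spread between libraries was measured over the 10757 genes that averaged 100 or more normalised reads. Their median CV was 10.2% and their median excess CV 9.21%. An excess CV over 25% was found in 459 of them (4.27%), and 2499 had less than 5%. With wild type 3 and 4 alone the count over 25% was 93 and the median CV 5.28%, and with wild type 1 and 2 alone the count was 109 and the median CV 5.25%. Without wild type 3 the count was 702. With a linear trend along length subtracted from each library it was 286, and with length and GC subtracted 164.

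Of 36 cell cycle genes 0 exceeded an excess CV of 25%, as did 0 of 22 in the tricarboxylic acid cycle and 0 of 19 fatty acid genes. In lists of this size that is near the 4.27% of all genes. Of 19 immediate early genes at that read count 6 exceeded it, and of 11 mitochondrially encoded genes 4. Steady genes among those named were Ccnd1 (excess CV 1.76%), Scd2 (2.91%), Cdkn1a (2.98%) and Eef1a1 (3.19%).

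Among the 20 protein-coding genes of highest excess CV, 14 were higher in both wild type 3 and 4 than in 1 and 2, 5 were lower and 1 neither. Over all genes 58.9% were split either way in TPM, and ranking by spread favours genes that differ between these pairs. The median length of the 20 genes was 1461.5 nt against 3223 nt for all genes of that read count, and their median GC content 58.3% against 50.1%. The inducible heat shock gene Hspa1b had the highest spread, with 731, 389, 171 and 157 normalised reads. Its mean level was 18.3 TPM and 11.9 TPM without wild type 1. Its neighbour and near-identical copy Hspa1a, whose reads may be shared with it, had 287, 166, 65.3 and 68.8 normalised reads. Ccn1, a matrix-associated target of YAP and of serum response factor, had 1406, 642, 434 and 404 normalised reads. These 3 genes were highest in wild type 1, as were Egr1 and Fos. Cebpb, which encodes a factor of astrocyte and inflammatory programmes, had 59.9, 89.3, 212 and 227 normalised reads and was higher in wild type 3 and 4. The linker histone gene H1fx (737, 663, 1773 and 1976 normalised reads) and the RNA polymerase subunit gene Polr2l (195, 347, 506 and 717) were also higher in wild type 3 and 4. mt-Co3 was high in wild type 4 alone with 978, 886, 899 and 2322 normalised reads, and Rnf225 was highest in wild type 2 with 87.4, 188, 74.3 and 73.6.

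**Figure D5:**
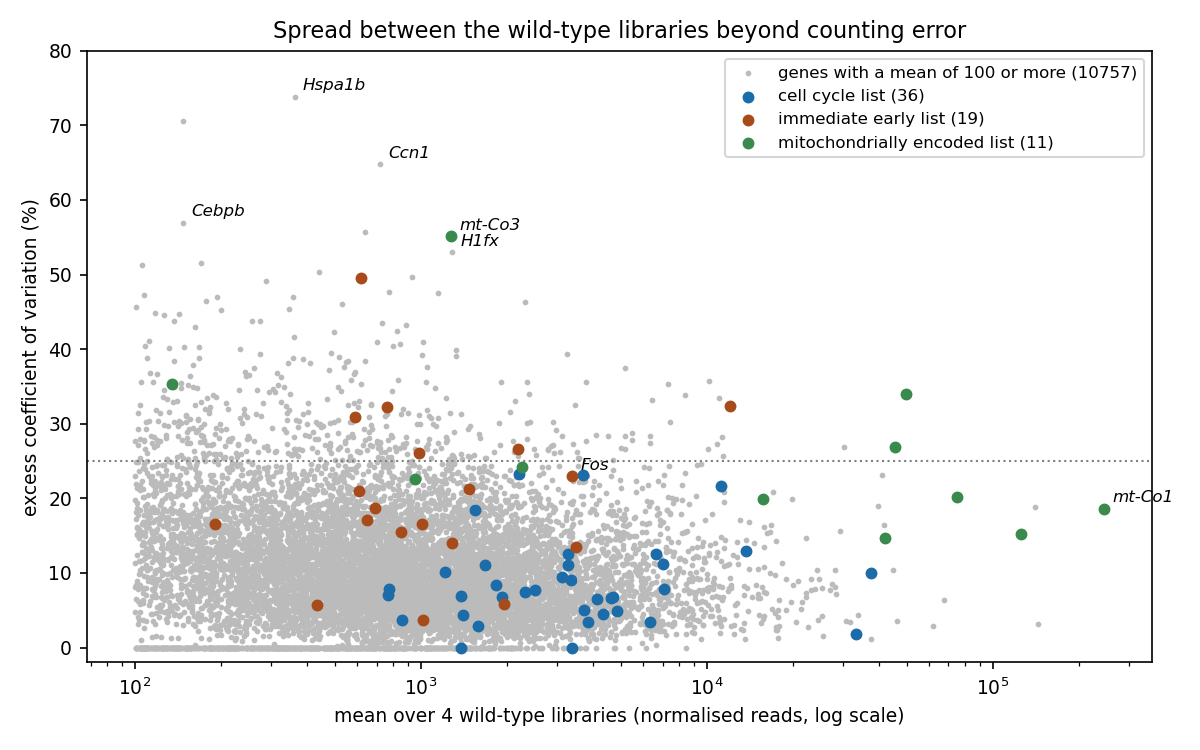
Excess CV (%) against mean normalised reads (log scale) for 10757 genes (grey), with the cell cycle, immediate early and mitochondrially encoded lists in colour and a dotted line at 25%. Cell cycle genes lie under the line, whereas 6 of 19 immediate early and 4 of 11 mitochondrially encoded genes lie above it.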

How the data were processed

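Bulk RNA-seq of 8 libraries was deposited, of which the 4 wild-type ones were used. Per the submitters' processing notes, the tools were STAR 2.7.1a and DESeq2 1.38.3, after fastp 0.23.4 and FastQC 0.12.1 in no stated order, and the build mm10. For the read counter, annotation and strand, the labels name nothing. The deposited values (signal) are gene-level reads over a size factor for each library (0.889 to 1.04), and whole reads were recovered for 100% of values at a tolerance of 1e-04 reads. Of 15602 rows 64 repeated another. Genes were matched to GENCODE M21, giving 15535 symbols and lengths.

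TPM was computed from the principal transcript of each gene (marked for 14731 genes, 94.8%, else the longest). Excess CV is the square root of CV squared minus 1 over mean recovered reads. Slopes used log2(value + 1) for genes with a mean of at least 10. The scripts were tested on simulated data. TMM scaling (edgeR 4.0.16) was an alternative only.

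Members, lists and families were chosen with earlier results of these data known. Named were the 30 highest genes, up to 8 highest members of each list and low defining markers, family leaders and runners-up, and the 20 genes of highest excess CV. Phf23, Tcf4, and other list members outside that rule, such as Prom1 and Id4, were named after their values were seen. Some of the genes that the rule would name are not printed.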

Additional observations from a re-analysis of the deposited data

Results flagged for a closer look

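Among the 4 libraries, 1 value can stand apart from the other 3. For 263 genes and 89 other measures whose values are given, the gap of the highest or lowest library to the next was divided by the whole range (Dixon's ratio), and 13 of 352 ratios (3.69%) passed the 95% critical value for 4 samples. Chance passes about 1 in 20.

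High in wild type 4 alone were mt-Co3 (ratio 0.905) and the ciliary gene Rsph1 (0.906, with 20, 20, 19 and 32 reads). High in wild type 1 alone was the summed level of the immediate early list (0.844), and at 9 or fewer reads Lef1 (0.843) and Gli1 (1, with 4 reads against 0). High in wild type 2 alone were Gli2 (0.922) and Rnf225 (0.852), and Bmp4 had its 3 reads in wild type 3 (1). Low in wild type 2 alone were Egr2 (0.867), at 36.6 TPM against 50.4 to 52.5 TPM, and with it the summed hindbrain list (0.904). Low in wild type 3 alone were the recovered reads (0.900), Nkx2-2 (0.835) and, at 1 read against 2, En1 (0.881).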

How the results depend on the processing

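Precision is limited by 4 libraries of unknown relation, by a single annotated transcript per gene as length, and by depth: at 15647304 to 18241215 reads, genes under 1 TPM rest on few reads, and counting error alone separates them little. Genes with no row cannot be read as 0. No paired analysis was possible because only 1 group was described. Alternatives added after seeing the data were the removal of wild type 1 and 2 or 3 and 4 together and of a joint length and GC trend.

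The number of genes at 10 TPM or more in all libraries ran from 9047 to 9082 when each library was left out in turn, the listed genes at that level from 454 to 459, and the families with a constant leader from 89 to 91. The share of the 100 highest genes ran from 25.9% to 26.3% when libraries were left out. It was 27.7% with the union of exons as length and 21.7% among protein-coding nuclear genes. The count of genes with an excess CV over 25% (459) was 286 with the length trend subtracted, 164 with length and GC subtracted, 1321 at a minimum mean of 10 normalised reads and 106 at a minimum of 1000. It was 93 without libraries 1 and 2, 109 without libraries 3 and 4, and 353 to 702 with each library left out. The median CV (10.2%) was 7.35% with length and GC subtracted, 5.28% without libraries 1 and 2, 5.25% without libraries 3 and 4, and 8.91% to 10.6% with each library left out. The range of the length slopes (0.18) was 0.01 (0.0134) without libraries 1 and 2, 0.06 (0.0586) without libraries 3 and 4, and 0.125 to 0.182 with each library left out. Fewer libraries or genes enter these alternatives by construction. Where it is not so, the cause was not tested.

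Of 263 gene levels, 23 moved by more than 1.5 times with the longest transcript as length and 91 with the union of exons, 57 of these upward. Values with the longest transcript stand in the report where the move was over 2 times, except for Igf1, which was at 0.108 TPM. The smaller moves were Ccnd3 to 50.3 TPM, Trp53 to 94.8, Otx1 to 21.7, Actl6b to 0.436, Meis2 to 73.5, Mt1 to 759, Cspg5 to 109, Fdps to 147, Meis1 to 11 and Ube2c to 244, and Ckb as given. No direction reversed, since no contrast was made.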

Other observations

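Cytoskeletal and adhesion families not described above also had steady leaders. Tuba1a held 56.4 ± 2.28% of alpha tubulin TPM and Tubb5, the beta tubulin of dividing cells, 42.2 ± 1.14% of beta tubulin TPM. Stmn1 held 83.4 ± 1.09% of the stathmins and Lmnb1 82.7 ± 1.45% of the lamins, ahead of Lmna and Lmnb2. Itgb1, the shared beta subunit of matrix receptors, held 79.6 ± 0.533% of integrin beta TPM. Gja1, which encodes connexin 43, held 72.1 ± 2.31% of the connexins, at 67.8 ± 7.28 TPM. Hspa8, the constitutive chaperone gene, held 98.1 ± 0.396% of HSP70 TPM, and Hsp90ab1 75.6 ± 2.36% of cytosolic HSP90 TPM.

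RNA-binding and growth regulators of early development were mixed. Hmga1 was at 158 ± 34.7 TPM against 17.3 ± 1.17 TPM for Hmga2, which declines with age in neural stem cells. Igf2bp3 was at 33.8 ± 6.61 TPM and Igf2bp2 at 23 ± 3.56 TPM, while Igf2bp1, an embryonic cortical gene, had 1, 0, 4 and 3 reads. Lin28b, the repressor of let-7 in early embryos, was at 0.16 ± 0.12 TPM, and Lin28a had no row. Metallothionein Mt1 was at 1416, 1404, 1194 and 1232 TPM, and Mt3, the brain form, at 402, 456, 429 and 604 TPM, Mt1 leading in all 4 libraries.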
